A study of Mus musculus with 8 samples.

Results

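The mast cell proteases and mediators are a set of 10 genes chosen by name, with earlier results of these data known. Their expression is described here in leukocytes of the mouse brain and its coverings before and after stroke. The genes are the tryptases Tpsb2 and Tpsab1, the chymases Cma1 and Mcpt4, the carboxypeptidase Cpa3, the receptor Kit, the histamine-forming enzyme Hdc, the IgE receptor chains Fcer1a and Ms4a2 and the transcription factor Gata2. All 10 were found among the 30406 genes shared by all libraries. Single-cell RNA-sequencing (scRNA-seq) was done on adult male C57BL/6 wild-type mice with droplet kits that count transcript 3′ ends by unique molecular identifiers (UMIs). Stroke was induced by transient middle cerebral artery occlusion (MCAO), in which a filament blocks the artery for a limited time. Leukocytes were sorted as CD45+ cells that an intravenously injected CD45 antibody had not reached (CD45iv−), which reduces the part of cells from the blood. There were 8 libraries. The dura and the pia had 1 library each from control mice and from mice 24 h after MCAO, and the brain had 1 control library, 2 at 24 h and 1 at 72 h after MCAO. The control library of the pia has a title that reads brain, against its other labels. The sources name the control mice once as naive and once as sham operated, so they are called control. The study states that experiments were repeated and mice pooled, with a total for each compartment but no number for each library, and p-values measure only the spread between libraries.

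Mast cells are long-lived tissue cells that store proteases, histamine and heparin in granules and release them when antigen crosslinks IgE on the high-affinity IgE receptor. They depend on KIT, the receptor for stem cell factor, and the dura mater is known as a tissue that holds many of them. Basophils are blood cells that share the IgE receptor, histamine synthesis and GATA2 with mast cells, and carry proteases of their own, Mcpt8 and Prss34. Group 2 innate lymphoid cells (ILC2) are tissue lymphocytes that share receptors such as Il1rl1 (the IL-33 receptor) with mast cells.

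The files held 36854 barcodes with 6591898 to 20754181 UMIs per library, and 32457 barcodes carried 1 of 21 cluster names in the deposited annotation. The median depth of annotated cells was between 1083 and 2505 UMIs. Replicate 2 of 24 h brain and 72 h brain stood apart from the other 6 libraries, since they used a list of 31053 instead of 32285 genes and their barcodes had 944 and 958 instead of 479 to 480 different first 7 bases. Between 13 and 143 barcodes of a library occurred in another library too, and no barcode was a Mast cell in 2 libraries. Intervals below are exact 95% intervals for counting error only.

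In the genome (GRCm38, GENCODE M21), the members lie on 8 chromosomes, and 2 pairs share a chromosome. Whether other genes lie between them was not searched. Tpsb2 (chr17:25366305-25369098, plus strand) and Tpsab1 (chr17:25343245-25345562, minus strand) are 20.7 kb apart, and the basophil gene Prss34 lies 43.1 kb from Tpsab1. Cma1 (chr14:55941451-55944675, minus strand) and Mcpt4 (chr14:56059629-56062313, minus strand) are 115.0 kb apart, and Mcpt8 lies 19.9 kb from Mcpt4. Cpa3 is at chr3:20215620-20242181, Kit at chr5:75574916-75656722, Hdc at chr2:126593667-126619299, Fcer1a at chr1:173221284-173227214, Ms4a2 at chr19:11615523-11623719 and Gata2 at chr6:88193891-88207032. The last 300 bases of the transcripts, where such kits read, were aligned, and gaps were left out of the identity. Between Tpsb2 and Tpsab1, 169 of 222 aligned bases (76.1%) were identical, with a longest shared run of 23 bases. Between Cma1 and Mcpt4 the identity there was 65.6% and the longest shared run was 8 bases. How the counting treated reads that match several genes was not tested, so whether this touches the counts of either pair is not known.

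RefSeq promoters (GRCm38.p6, 250 bases before and 50 bases after the start) were at hand for 8 of the 10 members. They were searched on both strands for GATA motifs, that is, for the word AGATAA, the word AGATAG, the word TGATAA or the word TGATAG, since GATA2 is itself a member. The promoters of Cma1, Mcpt4, Cpa3, Hdc, Fcer1a and Ms4a2 held at least 1 match, 6 of 8 genes. Of all 32851 promoters, 29.8% held a match. The members are counted by gene and the whole by promoter, so the shares are not of the same unit. Kit and Gata2 held none at either of their 2 starts. An E-box, searched as CATGTG or CACGTG, stood in 1 of the 8 genes (Fcer1a) and, by promoter, in 20.4% of the whole. The 4 promoters below belong to both chymases, to Cpa3 and to Ms4a2, the gene with the most matches (3), and matches are in capitals.
Cma1, chr14:55944626-55944925, minus strand: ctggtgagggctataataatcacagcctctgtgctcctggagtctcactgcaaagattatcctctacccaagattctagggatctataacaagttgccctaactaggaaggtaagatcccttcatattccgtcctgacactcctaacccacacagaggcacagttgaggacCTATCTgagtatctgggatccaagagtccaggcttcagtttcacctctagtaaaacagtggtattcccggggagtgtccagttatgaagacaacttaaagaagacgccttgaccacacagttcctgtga
Mcpt4, chr14:56062261-56062560, minus strand: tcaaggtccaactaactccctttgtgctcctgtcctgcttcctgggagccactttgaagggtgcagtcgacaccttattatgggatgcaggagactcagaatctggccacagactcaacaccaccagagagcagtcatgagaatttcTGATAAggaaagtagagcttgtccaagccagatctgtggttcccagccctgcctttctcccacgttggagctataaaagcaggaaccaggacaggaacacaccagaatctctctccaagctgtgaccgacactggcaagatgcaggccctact
Cpa3, chr3:20242132-20242431, minus strand: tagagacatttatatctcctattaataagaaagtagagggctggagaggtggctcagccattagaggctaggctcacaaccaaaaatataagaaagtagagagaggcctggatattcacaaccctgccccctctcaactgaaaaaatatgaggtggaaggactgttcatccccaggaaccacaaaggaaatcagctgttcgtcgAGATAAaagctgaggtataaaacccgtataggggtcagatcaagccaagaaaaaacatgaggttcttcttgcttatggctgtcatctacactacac
Ms4a2, chr19:11623670-11623969, minus strand: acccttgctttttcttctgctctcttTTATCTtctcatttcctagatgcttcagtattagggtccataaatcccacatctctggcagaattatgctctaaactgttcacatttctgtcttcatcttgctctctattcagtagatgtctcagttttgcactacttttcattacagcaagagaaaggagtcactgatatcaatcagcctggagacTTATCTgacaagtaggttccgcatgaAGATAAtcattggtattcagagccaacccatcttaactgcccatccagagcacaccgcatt
The matches began 79 bases before the start in Cma1, 103 in Mcpt4 and 46 in Cpa3. In Ms4a2 they began 224, 37 and 11 bases before it. A match is a stretch of letters and no measured binding site.

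All 10 members had their highest level in the cluster named Mast, which held 195 cells. Levels are given in CPM, a gene's counts per 1000000 UMIs of the same cells, and are compared between cells and not between genes. Summed over all libraries, the cluster held 95.5% of all Tpsb2 UMIs in annotated cells, 94.5% of Mcpt4, 93.3% of Cpa3, 91.6% of Cma1 and 89.7% of Tpsab1. The share was 84.4% for Fcer1a, 76.2% for Ms4a2 and 72.4% for Gata2. Only 45.6% of the Hdc UMIs and 16.3% of the Kit UMIs came from the Mast cluster, so most transcripts of these genes were counted in other cells. The clusters come from these counts themselves, so the levels are described and not tested.

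**Figure D1:**
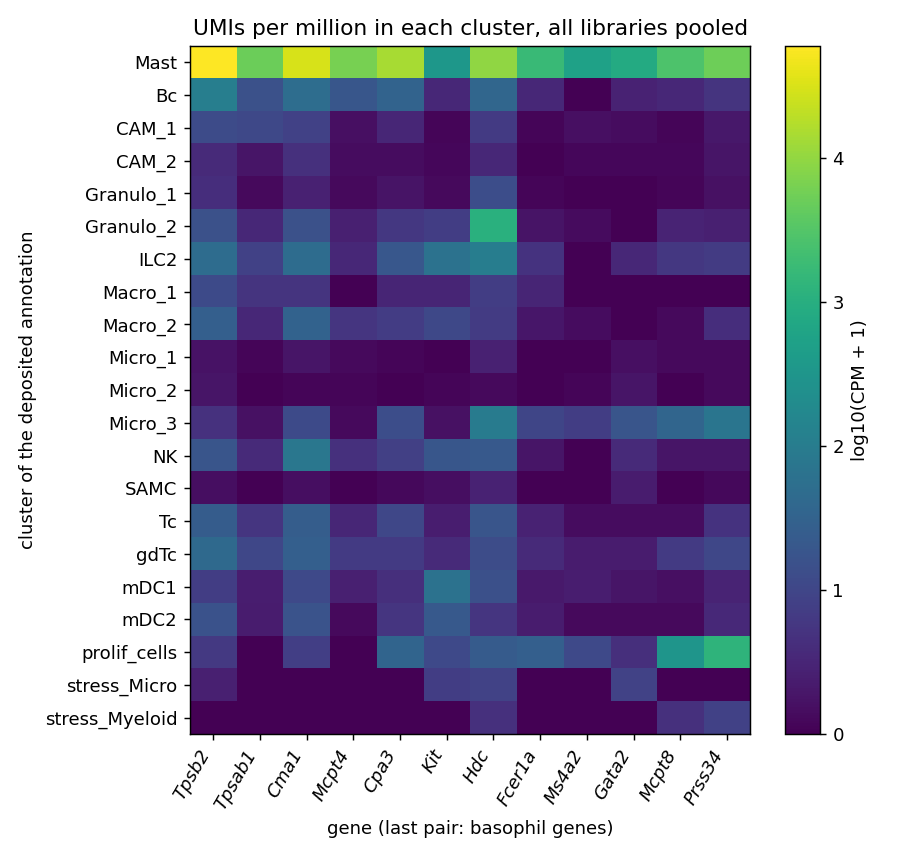
CPM (counts per 1000000 UMIs) of the 10 members and of the basophil genes Mcpt8 and Prss34 (columns) in the 21 clusters (rows), with cells of all libraries pooled and colours for log10(CPM + 1). The Mast row is the brightest for every member, Hdc has a further bright field in Granulo_2 (1084 CPM), and Mcpt8 and Prss34 in prolif_cells.

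Of the 195 Mast cells, 156 (80.0%) came from the dura. They were 63 of 2811 annotated cells in control dura (2.24%, interval 1.73 to 2.86%) and 93 of 4518 in 24 h dura (2.06%, 1.66 to 2.52%). In the other libraries their share was between 0.0356% in control pia (1 cell) and 0.260% in replicate 2 of 24 h brain (9 cells). It was 0.215% in 72 h brain (13 cells) and 0.153% in 24 h pia (6 cells). The intervals of both dura libraries overlapped, and the share was lower in every library of brain and pia. With 1 library per condition in all groups but 24 h brain, no share was tested.

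The label did not hold in all libraries. In the dura, member UMIs were 15.4% (control) and 16.8% (24 h) of all UMIs of the Mast cells, and in 24 h pia they were 16.5%. They were 1.20% in replicate 2 of 24 h brain, 1.34% in 72 h brain and 1.01% in the cell of control pia. None of the 3 Mast cells of control brain and none of the 7 of replicate 1 of 24 h brain held a single UMI of any member. The count of 0 allows up to 1161 CPM of a gene in the former and 261 CPM in the latter, below the level of Tpsb2, Cma1, Mcpt4, Cpa3, Tpsab1 and Hdc in the dura. Values of brain Mast cells below are given with this in view, and means over libraries use only the dura libraries, which had at least 30 Mast cells.

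Single cells of the cluster fell into groups by the proteases they held. Of the 195 cells, 159 had at least 5 UMIs of Tpsb2, Tpsab1, Cma1 and Mcpt4 together and fewer than 5 of Mcpt8 and Prss34. Another 13 had at least 5 UMIs of Mcpt8 and Prss34 and fewer than 5 of the mast cell proteases. There were 6 cells with both and 17 with neither. Control dura had 62 cells of the protease group and 1 with both, and 24 h dura had 87 of the protease group, 2 of the basophil gene group and 4 with both. All 6 cells of 24 h pia were of the protease group, and the cell of control pia held 413 UMIs of the basophil genes and none of the mast cell proteases. In replicate 2 of 24 h brain there were 5 cells of the basophil gene group and 1 of the protease group, and in 72 h brain 5 and 3. With a minimum of 10 UMIs in place of 5, both groups had 4 cells in 72 h brain, and with 3 UMIs they had 6 and 2. Control brain and replicate 1 of 24 h brain had 0 cells of either group.

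**Figure D2:**
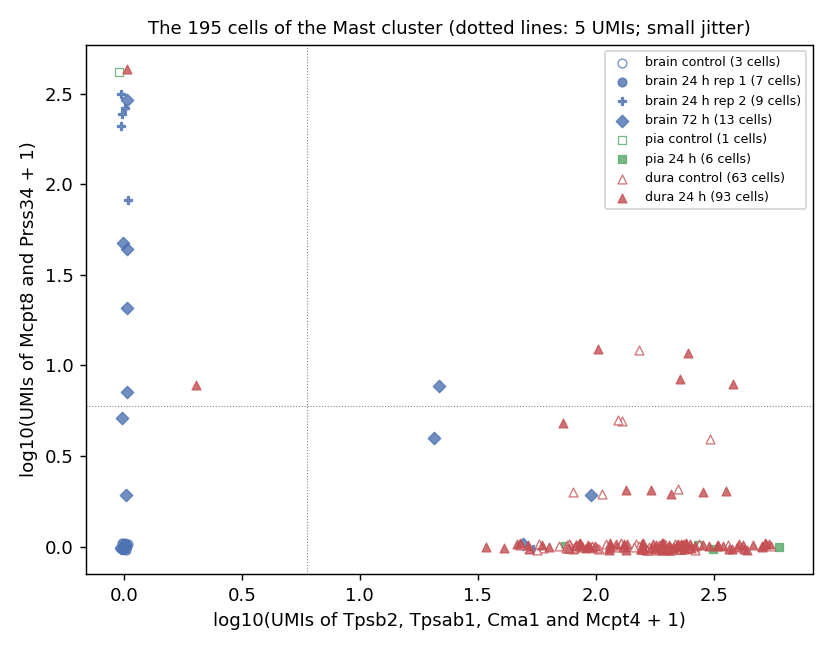
Each point is 1 of the 195 cells of the Mast cluster, with UMIs of the 4 mast cell proteases on the x axis and of Mcpt8 and Prss34 on the y axis, both as log10(UMIs + 1). Dura cells lie along the x axis with a median of 145 (control) and 194 (24 h) protease UMIs, and most of the brain cells lie on the left, either high on the y axis or at 0 on both.

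The 159 cells of the protease group held tryptase, chymase and Cpa3 transcripts together, each of them in 159 of 159 cells. Tpsb2 ranged from 14 to 418 UMIs per cell with a median of 100, Cma1 from 4 to 168 with a median of 45 and Cpa3 from 3 to 87 with a median of 21. Mcpt4 was found in 156 of these cells and Tpsab1 in 137. Such a combination of tryptase, chymase and carboxypeptidase is known from connective tissue mast cells, while Mcpt1 and Mcpt2 are chymases known from mucosal mast cells. Mcpt1 had 0 UMIs in all annotated cells. Mcpt2 had 61 UMIs, all in 8 cells of the Mast cluster, with 45 in 72 h brain, 10 in replicate 2 of 24 h brain, 5 in 24 h dura, 1 in 24 h pia and 0 in control dura. Hdc had a UMI in 155 cells and Fcer1a in 112. The receptors and the transcription factor were sparse, with a UMI of Gata2 in 79, of Ms4a2 in 78 and of Kit in 66 of the 159 cells, at a median depth of 1426 UMIs per cell. At this depth a cell without a UMI cannot be called a cell without the transcript.

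The 13 cells of the basophil gene group carried a different part of the set. They held 0 UMIs of Tpsb2, Tpsab1, Mcpt4 and Kit and 1 of Cma1, although their median depth was 3429 UMIs. Cpa3 was found in 12 of the 13 cells, at a median of 9 UMIs and up to 20. Hdc and Gata2 had UMIs in 11 cells each, Ms4a2 in 7 and Fcer1a in 5. Summed over cells, Gata2 was at 1996 CPM in these cells and 686 CPM in the protease group, whereas Cpa3 was at 2814 and 18091 CPM, Hdc at 1972 and 12138 CPM, Fcer1a at 529 and 2226 CPM and Ms4a2 at 625 and 581 CPM. The groups were formed from Tpsb2, Tpsab1, Cma1, Mcpt4, Mcpt8 and Prss34, and the cells come from few libraries, so these values are a description.

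Further cells with these transcripts lay outside the Mast cluster. There were 9 with the protease set, all from the dura, of which the highest, a cell of the Bc cluster with 24322 UMIs, held 225 protease UMIs. Another, of CAM_1 in 24 h dura, held 54 UMIs of Tpsab1 and 18 of Tpsb2 and none of Cma1, Mcpt4 or Cpa3, unlike any cell of the protease group in the Mast cluster. Of 7 cells outside with the basophil gene set, 6 were in Micro_3 and 1 in prolif_cells. The latter, from 24 h dura, held 1894 UMIs of Mcpt8 and Prss34, 39 of Cpa3, 32 of Fcer1a and 11 of Ms4a2. This cell gave all 32 Fcer1a UMIs and 11 of the 12 Ms4a2 UMIs of its cluster, so that the second place of prolif_cells for these genes rested on 1 cell. These cells were named after their values had been seen.

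The levels of whole libraries were highest in the dura, where the share of Mast cells was highest, for all members but Kit. In how many of all genes both dura libraries lay above all others was not counted, so this order is only a description. UMIs of all annotated cells were summed per library, without use of the clusters, and compared between tissues with edgeR's quasi-likelihood test on tissue and condition (control or stroke), over 12380 genes. Genes were called at an adjusted p under 0.05 and at least a 2-fold change. Between dura and brain, 4.38% of genes were called in either direction and 2.73% as higher in the dura. Another 1.65% were called as lower. Of the 10 members, 5 were called as higher and 0 as lower. Tpsab1, Fcer1a and Ms4a2 passed the filter on low counts only through the dura libraries, where they are high. For these genes the direction was not open, so the counts of members called are a description. The same limit holds for any gene found almost only in the dura. The median log2 difference of the members was 7.55, and −0.11 over all genes. In such sums, fewer cells of a type and less RNA per cell cannot be told apart.

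**Figure D3:**
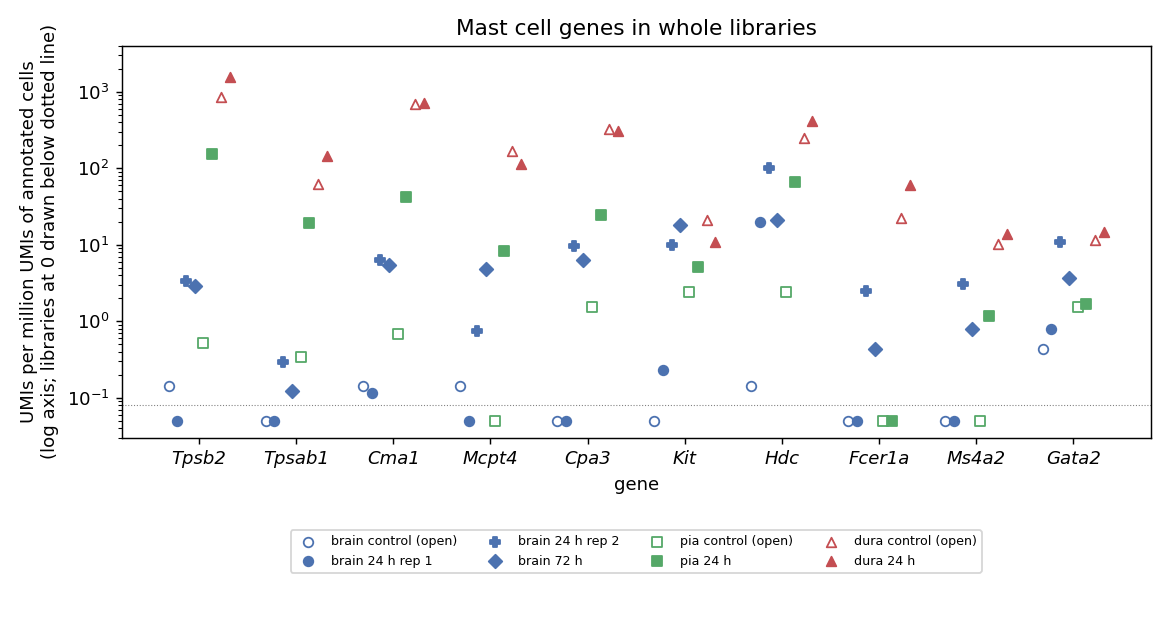
Each point is 1 library's CPM over its annotated cells (log axis), for brain (blue), pia (green squares) and dura (red triangles), with control libraries as open symbols and libraries at 0 drawn below the dotted line. The dura points lie above all others for every member but Kit, where 72 h brain (18.4 CPM) exceeds 24 h dura (10.9 CPM). The same order was not counted over all genes.

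The tryptases, serine proteases that act as tetramers bound to heparin, had the highest log2 differences of the members between dura and brain. Between dura and pia no gene was called. Fcer1a had 0 UMIs in the pia, so the size of its fitted difference (11.87 ± 2.51 SE) is not measured. Of the other members, Cma1 (6.96 ± 2.01 SE), Mcpt4 (6.39 ± 2.20 SE) and Tpsb2 (6.28 ± 2.23 SE) were highest, within their errors of each other. Tpsab1 was at 4.55 ± 1.07 (SE). Tpsb2 was at 871 CPM in control dura and 1588 in 24 h dura, at 0.517 and 155 in control pia and 24 h pia, and in brain at 0.144 (control), 0 and 3.42 (24 h, replicates 1 and 2) and 2.91 (72 h). Both dura libraries exceeded all others, and the log2 difference between dura and brain was 12.00 ± 1.94 (SE, edgeR adjusted p = 0.0256). Tpsab1 was at 62.6 and 145 CPM in the dura, at 0.344 and 19.2 in the pia and at 0, 0, 0.297 and 0.124 in brain, in the same order of libraries. Its log2 difference was 11.34 ± 1.10 (SE). Tpsab1 passed the filter on low counts only through the dura libraries, so its direction was not open and its call is a description.

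Chymases are serine proteases of mast cell granules, and some can form angiotensin II or activate other proteases. Cma1 was at 688 CPM in control dura and 715 in 24 h dura, at 0.689 and 41.9 in control pia and 24 h pia, and at 0.144, 0.115, 6.39 and 5.38 in control brain, 24 h brain (replicates 1 and 2) and 72 h brain. The groups did not overlap, and the fitted log2 difference between dura and brain was 10.20 ± 1.68 (SE, edgeR adjusted p = 0.0274). Mcpt4 was at 171 and 114 CPM in the dura, at 0 and 8.35 in the pia and at 0.144, 0, 0.743 and 4.89 in brain. The libraries did not overlap here either, but the log2 difference of 8.18 ± 1.79 (SE) missed the threshold at an edgeR adjusted p of 0.0521. Cpa3 trims peptides and is stored with the chymases. It was at 325 and 304 CPM in the dura, at 1.55 and 24.3 in the pia and at 0, 0, 9.81 and 6.43 in brain, and was called at a log2 difference of 8.44 ± 1.77 (SE, edgeR adjusted p = 0.047).

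Hdc forms histamine from histidine. It was at 253 CPM in control dura, 411 in 24 h dura, 2.41 in control pia, 66.4 in 24 h pia, 0.144 in control brain, 19.9 and 101 in 24 h brain and 21.5 in 72 h brain. The dura was highest, and brain and pia were lowest in the controls, but the difference between dura and brain was not called (6.37 ± 1.504 SE on the log2 scale, edgeR adjusted p = 0.0626).

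Of the IgE receptor genes, Fcer1a binds IgE and Ms4a2 amplifies the signal as the beta chain. Fcer1a was at 22.2 and 59.9 CPM in the dura and at 0, 0, 2.53 and 0.433 in brain, a log2 difference of 6.91 ± 1.23 (SE). Fcer1a passed the filter on low counts only through the dura libraries, so its call is a description. No UMI of Fcer1a was counted in annotated cells of either pia library, so that the dura, with 611 UMIs, was at least 199-fold higher than the level that 3 counts over both pia libraries would give. The 6 Mast cells of 24 h pia, rich in protease transcripts, thus held no Fcer1a UMI. Ms4a2 was at 10.3 and 13.9 CPM in the dura, at 0 and 1.17 in the pia and at 0, 0, 3.12 and 0.804 in brain, a difference of 5.19 ± 1.45 (SE, log2, edgeR adjusted p = 0.0942).

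Gata2 is a transcription factor of mast cells, basophils and blood progenitors. It was at 11.7 and 14.7 CPM in the dura, at 1.55 and 1.70 in the pia and at 0.431, 0.802, 10.8 and 3.71 in brain. The replicates of 24 h brain thus differed more from each other than replicate 2 from the dura, and the difference was not called (log2 2.68 ± 1.01 SE, edgeR adjusted p = 0.167). Kit was at 21.1 and 10.9 CPM in the dura, at 2.41 and 5.09 in the pia and at 0, 0.229, 10.1 and 18.4 in brain. It was the member whose dura and brain libraries overlapped, and its edgeR adjusted p was 0.461.

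The calls of Tpsb2, Cma1, Cpa3 and Fcer1a between dura and brain were lost with the kit version as covariate and in sums without microglia clusters. The call of Cpa3 was also lost with scaling by library size only and with all barcodes summed. The number of calls between dura and brain rested on single libraries too. Without 24 h dura no gene and no member was called, and without control dura 16 genes and 1 member were. Leaving out control brain, control pia, 24 h pia, or replicate 2 of 24 h brain left 51, 86, 79 and 312 genes and 1, 2, 2 and 2 members, and leaving out 72 h brain left 366 genes and 2 members. Between dura and pia, 0 genes were called by edgeR (537 at an unadjusted p under 0.05) and 56 by DESeq2, 3 of them members (Tpsab1, Cma1 and Hdc). Between stroke and control, 0 genes were called by edgeR (514 unadjusted) and 71 by DESeq2, of which Hdc was a member.

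In the dura, transcripts of the granule proteases were also found at a low level in cells outside the Mast cluster, and these were compared with the Mast cells of the same library. Cells with at least 5 UMIs of the mast cell proteases or of the basophil genes were left out. In control dura, the level in the other 2745 cells was between 0.0319% (Tpsb2) and 0.0729% (Cma1) of that in Mast cells for the tryptases, chymases and Cpa3. In 24 h dura, with 4413 cells, it was between 0.0518% (Tpsb2) and 0.119% (Tpsab1). The intervals of Tpsb2 (0.0261 to 0.0386%) and Cma1 (0.0627 to 0.0843%) in control dura did not overlap. The 2745 cells include 141 NK cells, which held 19 Cma1 UMIs (106 CPM), while the other 2604 cells of control dura held 163 (29.9 CPM). Whether NK cells have a part in the gap between Tpsb2 and Cma1 was not tested. A UMI of Tpsb2 was found in 3.68% of these cells in control dura (median depth 1700 UMIs) and in 7.41% at 24 h (median depth 1178 UMIs). Of the Granulo_2 cells, 2.05% (median depth 1612 UMIs) and 8.08% (median depth 1557 UMIs) had it. Whether the UMIs outside the Mast cluster came from free RNA was not tested.

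**Figure D4:**
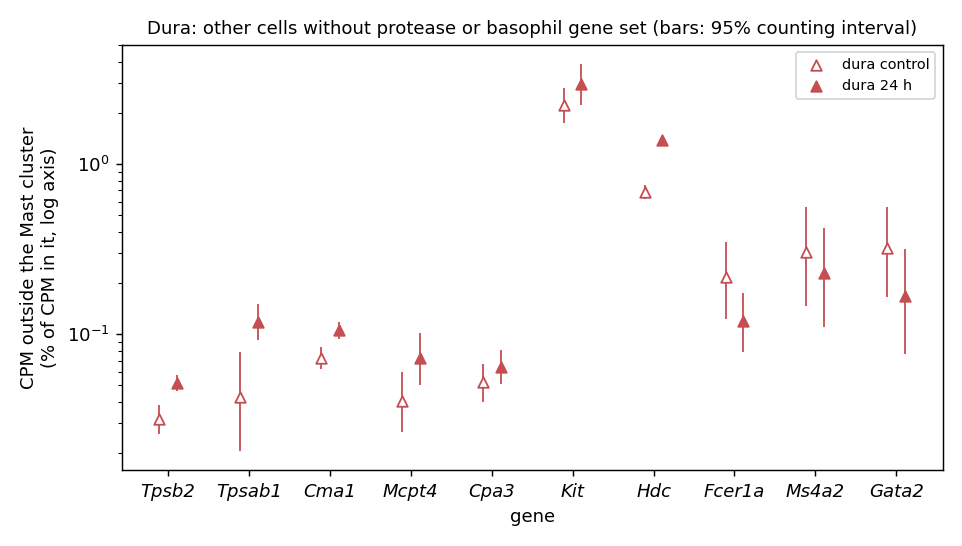
CPM in dura cells outside the Mast cluster as a percentage of the CPM in the Mast cluster (log axis), for control dura (open) and 24 h dura (filled), with 95% counting intervals. The tryptases, chymases and Cpa3 lie between 0.0319% and 0.119%, Hdc at 0.686% and 1.39% and Kit at 2.24% and 2.97%.

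Of the other members, Fcer1a, Ms4a2 and Gata2 were at 0.216%, 0.306% and 0.321% in control dura and at 0.120%, 0.230% and 0.167% in 24 h dura, from 9 to 27 UMIs each. Hdc (0.686% and 1.39%) and Kit (2.24% and 2.97%) lay above the range of the proteases, and their intervals (0.624 to 0.752% and 1.32 to 1.47% for Hdc, 1.75 to 2.81% and 2.23 to 3.88% for Kit) did not reach it. An alternative chosen after the data had been seen left out the Mast cluster and all cells of at least 5 protease UMIs. In this alternative, and in sums that left out only the Mast cluster, the log2 differences of all members between dura and brain stayed above 0. Calls of members in these sums are left out, since the share of all genes called is not given beside them. The direction is not read as a result on the members. The protease UMIs in the remaining dura cells are part of these sums, and whether they came from Mast cells was not tested.

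Most of the Hdc transcripts outside the Mast cluster lay in granulocytes. Granulo_2, a cluster with neutrophil genes, held 41.2% of all Hdc UMIs. Over the 6 libraries with at least 30 of these cells, its Hdc level was 2605 and 952 CPM in 24 h brain (replicates 1 and 2), 526 in 72 h brain, 2264 in 24 h pia, 788 in control dura and 1405 in 24 h dura, or 1423 ± 841 CPM (SD, n = 6 libraries). The replicates of 24 h brain spanned most of this range. A UMI was found in 69.1% of Granulo_2 cells (median depth 1200 UMIs), against 2.40% of Granulo_1 cells (median depth 2723 UMIs) and 0.207% of Micro_1 cells (median depth 1514 UMIs). Thinned to 500 UMIs per cell, the shares were 43.6%, 0.611% and 0.138%. In the Mast cells of the dura, Hdc averaged 12245 ± 633 CPM (SD, n = 2 libraries).

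Kit was also counted in dendritic cells, ILC2 and macrophages. The cluster mDC1 held 35.1% of all Kit UMIs, more than the Mast cluster, Macro_2 held 14.9% and ILC2 held 12.1%. Of the 94 Kit UMIs in Macro_2, 78 came from 72 h brain (41.9 CPM), and the other libraries had between 0 and 4. Kit in mDC1 was at 74.7 CPM in replicate 2 of 24 h brain and 116 in 72 h brain, at 31.3 and 17.2 in control pia and 24 h pia and at 43.9 and 17.7 in control dura and 24 h dura. Both libraries with the shorter gene list were the highest, and whether the gene list or the barcodes have a part in this was not tested. In ILC2, Kit was at 54.5 CPM in control dura and 40.9 in 24 h dura, 9.40% and 17.8% of the level in Mast cells of the same library, where Tpsb2 was at 0.100% and 0.0808%. The transcription factor Gata3, which defines ILC2, averaged 840 ± 257 CPM (SD, n = 5 libraries) in ILC2 and had 0 UMIs in the 156 Mast cells of the dura. Il1rl1 was carried by both, at 370 ± 130 CPM (SD, n = 5 libraries) in ILC2 and 504 ± 140 CPM (SD, n = 2 libraries) in Mast cells. Il5 and Areg, cytokine genes of ILC2, had 0 UMIs in all Mast cells, while Il13 had 68.

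Cma1 was counted in NK cells of the brain, a pattern noticed after the values had been seen. Outside the Mast cluster, brain libraries held 52 Cma1 UMIs in 18362 cells, and 49 of them lay in the 278 NK cells. By library these were 0 UMIs in 16 NK cells of control brain, 1 in 16 and 20 in 96 NK cells of 24 h brain (replicates 1 and 2) and 28 in 150 at 72 h, with up to 4 in a cell. A UMI was found in 33 of the 278 NK cells (median depth 1566 UMIs) and in 3 of the other 18084 cells (median depth 1703 UMIs). The same NK cells held 0 UMIs of Tpsb2 and of Mcpt4. The level was 87.2 CPM (53.3 to 135) in replicate 2 of 24 h brain and 137 CPM (91.3 to 199) at 72 h. In the dura, NK cells were at 106 CPM (64.1 to 166) in control and 75.2 CPM (45.3 to 117) at 24 h, above the 29.9 and 37.5 CPM of the other cells there, and in the pia they held 0 and 1 UMI. Whether reads of related protease genes were counted as Cma1 in NK cells was not tested.

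Between control dura and 24 h dura, the level of the members within Mast cells moved in both directions. With 1 library each, no test was possible, and intervals cover counting error of these libraries. The sources also give kit version 2 for control dura and 3 for 24 h dura, so that kit and condition cannot be told apart, although both libraries have the same gene list and number of barcode starts to within 1. Of 494 genes with at least 20 UMIs in both, 7.09% differed by more than 2-fold, and the median log2 ratio was −0.063. Of the members, 2 of 10 differed by more than 2-fold, and their median log2 ratio was −0.014, close to that of all genes.

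The tryptases were higher at 24 h. Tpsb2 was at 57865 CPM in control and 85161 CPM at 24 h, a log2 ratio of 0.56 (0.51 to 0.61), and Tpsab1 at 4125 and 7160 CPM, a log2 ratio of 0.80 (0.62 to 0.98). Mcpt4, Cpa3 and Cma1 were lower, with log2 ratios of −0.93 (−1.07 to −0.80), −0.44 (−0.53 to −0.35) and −0.27 (−0.33 to −0.21). Within single cells of the protease group, Tpsb2 made up a median of 56.7% of the Tpsb2 and Cma1 UMIs in control dura and 69.5% in 24 h dura, and Tpsb2 was in the majority in 39 of 62 and 80 of 87 cells. Cells of either library ranged widely, from 17.3% to 81.1% and from 34.7% to 88.9%, so the libraries overlapped. In the 6 cells of 24 h pia the median was 82.7%.

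Fcer1a was the member with the highest ratio, at 1315 CPM in control and 2861 CPM at 24 h (log2 1.12, 0.81 to 1.44), with a UMI in 39 of 63 and 75 of 93 cells. Kit had the lowest, at 579 and 230 CPM (log2 −1.33, −2.02 to −0.66), but from 48 and 33 UMIs. The intervals of Hdc (log2 0.11), Ms4a2 (−0.071) and Gata2 (0.044) included no difference. Kept to cells of the protease group, the ratios of Fcer1a and Kit were 1.21 and −1.19. Thinned to 500 UMIs per cell they were 1.00 and −1.06. The basophil gene list summed to 2183 CPM in control and 6866 CPM at 24 h, and the eosinophil list to 0 and 3119 CPM. Single cells carried much of this, as 1 cell of 24 h dura held 454 UMIs of Mcpt8 and Prss34 and another held all 433 UMIs of Prg2. Both are left out of the ratios of the protease group, where the other members kept their direction too, except Ms4a2 (0.015).

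**Figure D5:**
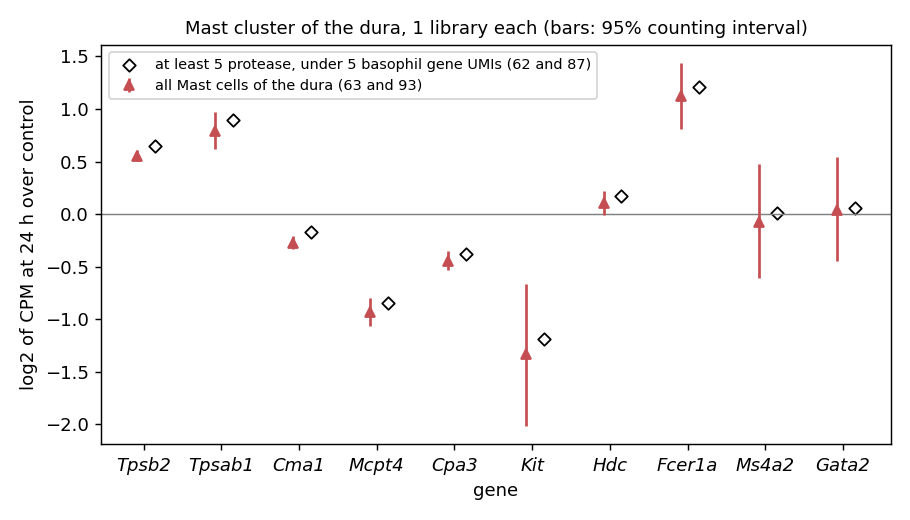
Log2 ratio of CPM in Mast cells of 24 h dura to control dura for each member, for all Mast cells (triangles with 95% counting intervals) and for cells with at least 5 protease and fewer than 5 basophil gene UMIs (diamonds). Both tryptases and Fcer1a lie above 0, both chymases, Cpa3 and Kit below 0, and Hdc, Ms4a2 and Gata2 at 0 within their intervals.

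Some further genes of mast cells were found mostly in the Mast cluster. Of 24 other granule and receptor genes, 21 had UMIs there and 8 had over 50% of their UMIs there, and in the test of whole libraries 7 of the 20 tested were higher in dura than in brain and 1 (Hpgds, a prostaglandin synthase named here after its value was seen) was lower. Of all genes tested, 2.73% were called as higher in the dura and 1.65% as lower. The median log2 difference of the list was 2.14, and −0.11 over all genes. Mrgprb2, the receptor for basic secretagogues, had 94.3% of its UMIs in the Mast cluster and Mrgprb1, its relative, 95.6%. Their log2 differences between dura and brain were 9.39 ± 1.22 and 9.30 ± 1.05 (SE). Tph1, which starts serotonin synthesis, had 91.2% of its UMIs there and a log2 difference of 8.14 ± 0.93 (SE). Most UMIs of Mrgprb1, Mrgprb2 and Tph1 lay in Mast cells of the dura. The limit on genes found mostly in the dura holds for them too, so their calls are a description. Of the most abundant genes of the list in Mast cells, Cd63 and Srgn, 1.86% and 1.09% of the UMIs lay there. The cluster held 195 of the 32457 annotated cells, and both genes were at a higher level in it than elsewhere. Cd63 was at 5545 CPM in Mast cells and 1350 CPM in all other clusters, and Srgn at 2781 and 1170 CPM.

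Of 15 genes of IgE receptor signalling, each was found in the Mast cluster, and none had more than 2.26% of its UMIs there. That highest share was of Lat2, which was at 750 CPM in Mast cells and 150 CPM in all other clusters. The shared gamma chain Fcer1g was at 2183 CPM in Mast cells and 2312 CPM in all other clusters. In the test of whole libraries 1 of the 15 was higher in dura (Lat, an adaptor also used by T cells, log2 4.32 ± 0.32 SE, edgeR adjusted p = 0.00368), and T and NK cell genes were called in 3 of 5 cases as higher there too. Of 14 cytokine and chemokine genes, 3 were called as higher in the dura (Il4, Il13 and Csf2). In Mast cells Ccl2, which attracts monocytes, was at 7274 CPM in control dura and 7090 CPM in 24 h dura, but had 1 and 2 UMIs in Mast cells of replicate 2 of 24 h brain and of 72 h brain. There, Ccl3 and Ccl4, attractants of monocytes and T cells, had 311 and 261 UMIs at 24 h and 35 and 146 at 72 h.

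Of 8 basophil genes, 1 (Il4) was called as higher in the dura. Mcpt8 and Prss34 did not differ between dura and brain beyond the spread of libraries (edgeR adjusted p = 0.654 and 0.454). Cd200r3 and Cyp11a1 were found in Mast cells of both dura libraries, with 67 and 107 and with 49 and 276 UMIs, while Mcpt8 and Prss34 were found in 1 and 6 of 63 cells of control dura and in 5 and 9 of 93 cells of 24 h dura. The eosinophil gene Prg2 had 433 UMIs in the Mast cluster, all in 1 cell of 24 h dura that also held 11 UMIs of Epx, 1 of the mast cell proteases and 7 of the basophil genes. Of 5 genes of megakaryocytes and progenitors, Gata1 had 15 of its 30 UMIs in Mast cells. Of genes of other cell types, 4 of 5 neutrophil and 7 of 7 macrophage and microglia genes had UMIs in the Mast cluster. So did 3 of 5 T and NK cell, 3 of 3 B cell and 3 of 5 dendritic cell genes. The cluster held no more than 0.405% of the UMIs of any of these genes. Those with the highest shares, Clec9a and Nkg7, were at 3.30 and 125 CPM in Mast cells and at 3.75 and 144 CPM in all other clusters. Of 5 fibroblast and endothelium genes 2 had UMIs in the Mast cluster, at most 1.06% of a gene's total. This was Pecam1, with 8 UMIs, at 26.4 CPM in Mast cells and 11.3 CPM in all other clusters. Of 11 ILC2 genes, 7 had UMIs in Mast cells, and 9 were called as higher in dura than in brain.

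The genes most like the summed members over 142 sums of library and cluster, 3 of them of Mast cells, were Serpinb1a (Pearson's r = 0.64 on the log2(CPM + 1) scale), Ngp, Tuba8, Rab44, Adgrg3, Camp, Cyp11a1, Prss34, Retnlg and Igha (0.56). Ngp, Camp and Retnlg are granule genes of neutrophils, with at most 0.0337% of their UMIs in Mast cells. Of the 2786 member UMIs in Granulo_2, 2674 were of Hdc. Whether Hdc, library depth or free RNA has a part in the likeness of these genes was not tested. Within the dura alone (35 sums, 2 of Mast cells), 0 of these 10 genes were among the 10 most alike, which were led by Gm10354 (0.91), Slc18a2, the transporter that loads histamine into granules (0.88), and Cd200r3 (0.87).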

How the data were processed

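CD45iv−CD45+ leukocytes of brain, pia and dura were profiled by droplet scRNA-seq in 8 libraries, and groups were taken from the sample labels. Per the authors' methods and processing notes, reads were aligned to mm10 and counted with Cell Ranger 6.0, and the deposited matrices hold UMI counts per gene and barcode, not normalised. The authors removed low-quality cells and doublets (scDblFinder), integrated the libraries (SCTransform, Harmony), clustered them (Louvain) and named the clusters by hand, and these deposited names were used as they stand. No further filter or doublet call was applied, and 4397 barcodes without a name were left out. Sources give the newer kit for 72 h brain and 24 h dura, whereas gene lists and barcodes set apart replicate 2 of 24 h brain and 72 h brain, so both were tried as covariates.

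Counts were summed per library and cluster over the 30406 genes that all libraries list and expressed as CPM, with means over libraries from sums of at least 30 cells. Whole-library sums were tested with edgeR 4.0.16 (filterByExpr, TMM, glmQLFit with robust dispersion, glmQLFTest, two-sided) on tissue and condition, with Benjamini-Hochberg adjustment over 12380 genes, a threshold of 0.05 and a fold of at least 2. DESeq2 1.42.0 was an alternative, as were other scaling, no filter, other sets of cells and leaving out each library. Each SE of a log2 difference from edgeR is that difference, without its sign, divided by the square root of the F statistic of its test. The edgeR script was tested on simulated counts. Exact 95% intervals and the limit of 3 counts for a count of 0 cover counting error only. Likeness used Pearson's r with log2(CPM + 1) over sums of at least 10 cells and genes of at least 50 UMIs. Positions came from GENCODE M21, which held 30329 of the 30406 gene identifiers, and promoters from RefSeq. Python 3.11.15 and R 4.3.3 were used. Named genes are the members, the basophil proteases, ILC2 and progenitor genes, the most abundant genes of the other lists in Mast cells and the 10 genes most like the members. The members and gene lists were chosen with earlier results of these data known.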

Additional observations from a re-analysis of the deposited data

Results flagged for a closer look

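The 4397 barcodes without a cluster name, which no comparison used, held 3230 UMIs of Tpsb2, Tpsab1, Cma1 and Mcpt4, and 15 of them held at least 5. Of these UMIs 2412 lay in 24 h dura (11 such barcodes), 554 in 24 h pia (1), 200 in control dura (2) and 62 in 72 h brain (1). In control brain, control pia and replicate 1 of 24 h brain such barcodes held 0. The same barcodes without a name held 3449 UMIs of Mcpt8 and Prss34, with at least 5 in 6 of them, and 2508 of these UMIs came from 24 h dura and 882 from control dura.

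Relative to the control library of the same tissue, the ratios of Cpa3 and Kit at 24 h had opposite signs in dura and pia, on CPM of whole libraries. Cpa3 had a log2 ratio of −0.10 in the dura and 3.97 in the pia, and Kit of −0.96 in the dura and 1.08 in the pia. Cpa3 was thus near its control level in the dura (325 CPM in control and 304 CPM at 24 h). In control pia it had 9 UMIs, 8 of them in 1 Mast cell, and in 24 h pia 186, of which 182 lay in 6 Mast cells. The sources give different kit versions for both dura libraries. With 1 library in each group, the difference between the tissues was not tested.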

How the results depend on the processing

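Between dura and brain, edgeR called 542 genes and 5 members. DESeq2 called 1975 and 8, scaling by library size only 340 and 3, no filter on low counts 972 and 2, the kit version as covariate 11 and 1, the gene list as covariate (chosen after seeing the data) 4118 and 10, and sums without microglia clusters 70 and 1. In sums without the Mast cluster, no member reversed its direction between dura and brain. Leaving out 1 library gave 0 to 735 genes and 0 to 6 members, with none called without 24 h dura and most without replicate 1 of 24 h brain. Between dura and pia, with 0 called, DESeq2 called 56 genes and 3 members, no filter 5 genes and the gene list as covariate 259 genes and 1 member. Between stroke and control, with 0 called, DESeq2 called 71 genes and 1 member, no filter 9 genes and the gene list as covariate 3 genes. Of the log2 differences of members, 445 kept direction and side of the threshold, 41 lost and 21 gained a call and 3 reversed, all of Kit. Kit between stroke and control was −0.069 with the gene list as covariate and from −0.028 to 3.24 on leaving out 1 library, and between dura and pia from −0.34 to 3.85. The cause was not tested. Tpsab1 passed the filter on low counts only through the dura libraries, so its calls in the alternatives are not read as support.
No paired analysis was possible because only brain at 24 h has more than 1 replicate number.
The precision of Kit, Ms4a2 and Gata2 in Mast cells is limited by depth, with 33 to 98 UMIs in a dura library.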
